A study of Mus musculus with 14 samples.

Results

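The maturation of wild-type mouse brain was followed by setting adult wild-type brain of set 1 (2 libraries, replicates 1 and 2) against wild-type brain at E19.5 (2 libraries), an embryonic day at about the time of birth. These are 4 of the 14 libraries of a study of brains from animals made with haploid embryonic stem cells that carry deletions at imprinted regions, and neither wild-type group is labelled with a deletion. The maturation of KO2 brain (H19-DMR and IG-DMR deleted, adult and E19.5, 2 libraries each) served as a comparison, and the 2 libraries of E19.5 KO7 brain, with 7 deletions (the DMRs of Gnas, Grb10, Igf2r, Kcnq1, Nespas, Peg3 and Snrpn), entered that fit only for the spread between libraries. The labels give the tissue as brain and the later stage as adult, without a strain, an age in weeks or a sex, and leave it unsaid whether each replicate is another animal, so p-values measure the spread between these libraries, which may be technical. Levels are in FPKM, counts of fragments divided by transcript length and by the size of the library, and a comparison of levels between genes is on this per-length scale. A gene was kept where 2 or more of the 4 libraries reached 1 FPKM, apart from rows for microRNA and small nucleolar or Cajal body RNA genes, which left 13575 of 23375 genes. Changes are differences of log2(FPKM + 1), adult minus E19.5, which understate the change of low genes, and a gene passed the test at a limma adjusted p under 0.05.

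Around birth most neurons of the mouse forebrain have left the cell cycle and are extending axons, while most synapses and nearly all myelin form in the weeks after birth. Neurons then exchange fetal subunits of receptors, channels and cytoskeleton for adult ones, astrocytes take up transmitter and potassium at synapses, and oligodendrocytes wrap axons. Bulk tissue was sequenced, so fewer cells of a type and less RNA per cell cannot be told apart in any result given here.

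Each of the 4 libraries reached 1 FPKM in 12990 to 13173 genes, and read depth is unknown. Pearson's r across genes was 0.988 between the adult libraries and 0.989 between the E19.5 libraries, against 0.845 to 0.864 between libraries of different stage. The tissue label was borne out by neuronal markers, for example Snap25 (973 and 785 FPKM in adult brain, 109.8 and 125 FPKM at E19.5) and Gad1 (96.4 and 103 FPKM in adult brain, 65.4 and 64.4 FPKM at E19.5). Markers of mature cerebellum were at or near 0 in adult set 1: Gabra6, a receptor subunit of granule cells, was listed at 0 in both adult libraries, and Cbln3 and Pcp2 were at 0.0359 and 0.0432 FPKM and at 0 and 0.535 FPKM. In the adult wild-type libraries of set 2, which are used here only as an alternative, the same genes had 42.9 and 59.1 FPKM (Gabra6), 31.7 and 38.3 FPKM (Cbln3), and 162 and 155 FPKM (Pcp2). Xist was at 45.7 and 48.3 FPKM in adult brain and 117 and 106 FPKM at E19.5, and among 4 Y-linked genes the only value above 0 was 0.00916 FPKM, for Uty in adult replicate 2.

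With age, 3526 genes rose (26.0% of those tested) and 5468 fell (40.3%), so that 66.3% of the 13575 genes passed in one direction or the other. A change of at least 1 on the log2 scale was passed by 1410 genes upwards (10.4%) and 1613 downwards (11.9%), and at larger sizes rises outnumbered falls: 108 against 33 at 3 or more, and 26 against 12 at 4 or more. The libraries of the stages did not overlap for 11593 genes (85.4%). The median change over all tested genes was -0.16, and the middle 90% of genes lay between -1.40 and 1.54. Scaling by the median of ratios moved that median to 0.0046 and gave 4460 rises and 4246 falls, or 51.2% rises among the calls against 39.2% without it, and at a change of at least 1 it gave 1765 rises and 1121 falls. Quantile scaling gave 1535 rises and 1365 falls of that size. The counts and medians of the lists below are to be read beside the 26.0% rises, 40.3% falls and median of -0.16 of all genes. Between the extremes, 52 genes were under 1 FPKM in both E19.5 libraries and at 5 FPKM or more in both adult ones, and 11 genes showed the reverse.

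**Figure D1:**
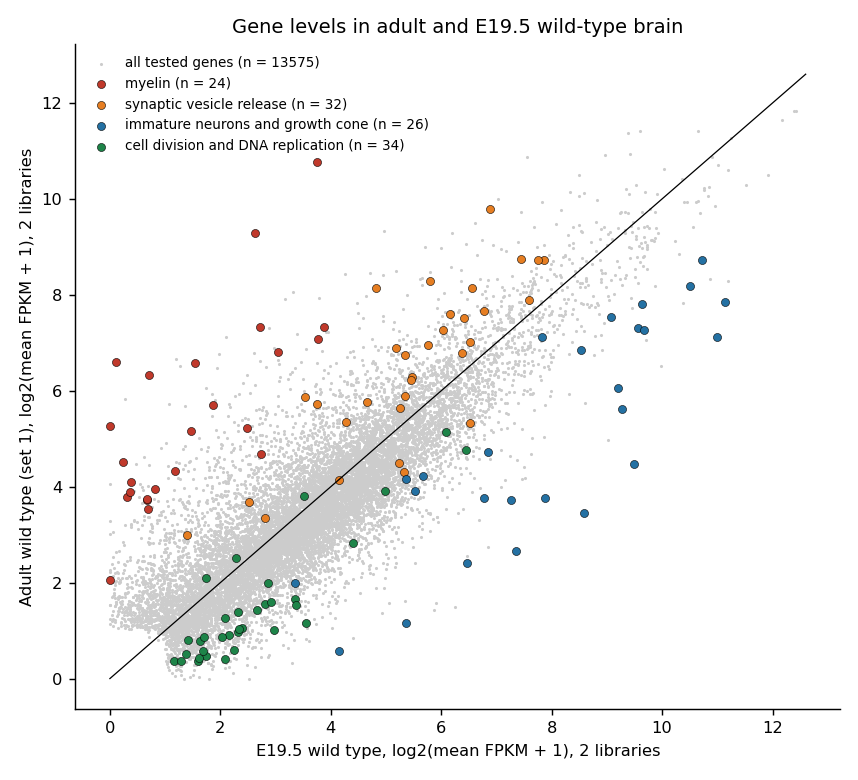
Mean level of each tested gene in adult brain (vertical axis, set 1) and at E19.5 (horizontal axis), both as log2(mean FPKM + 1) over 2 libraries, with 4 gene lists coloured and the line of equal level drawn. All 24 myelin genes lie above the line and all 26 tested genes of immature neurons below it.

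The 12 largest rises, ranked on log2(FPKM + 1) among genes of at least 5 FPKM in one stage whose libraries did not overlap, belonged mostly to myelin, astrocytes and synapses. Mbp, a major protein of compact myelin, had 1542 and 1972 FPKM in adult brain against 10.9 and 13.9 FPKM at E19.5, a change of 7.03 (SE 0.17, adjusted p = 3.02e-05). Its mean FPKM was 142-fold higher in adult brain. Opalin, a surface protein of oligodendrocytes, was at 33.4 and 41.9 FPKM in adult brain and listed at 0 in both E19.5 libraries. Others were Mobp, Mal and Mag of myelin, the sodium channel subunit Scn4b, the activity-induced gene Arc, the astrocyte receptor genes Gpr37l1 and Ntsr2, the dendritic gene Ddn, and Fam107a, with changes between 4.76 (Ddn) and 6.49 (Mobp).

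The 12 largest falls were mostly genes of young neurons. Cd24a, a surface glycoprotein of immature neurons, was at 8.403 and 11.4 FPKM in adult brain against 440.2 and 327 FPKM at E19.5 (-5.14, SE 0.19, adjusted p = 4.4e-05). Dcx, which binds microtubules in migrating neurons, was at 5.52 and 5.14 FPKM in adult brain and 181 and 146 FPKM at E19.5, and Dpysl3, a collapsin response mediator of the growth cone, was at 18.9 and 23.9 FPKM in adult brain and 727 and 709 FPKM at E19.5. Their mean FPKM was 30.7-fold (Dcx) and 33.6-fold (Dpysl3) higher at E19.5. St8sia2, which adds polysialic acid to the adhesion molecule NCAM, fell by 4.35 to 1.65 and 2.28 FPKM in adult brain, against 59.3 and 59.0 FPKM at E19.5. Others of this set were Trim67, Gpc2, Igfbpl1, Mex3a, Dpysl5, Nrep and the transcription factor Sox11. The 12 were ranked among genes whose libraries did not overlap, so the separation of their libraries follows from that rule.

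In adult brain the 10 most abundant genes by FPKM were mostly those of ribosomes, metal binding and secreted brain proteins. At E19.5 the 10 highest were mainly genes of ribosomes, and Fth1, Cst3, Apoe and Mt1 were not among them. Rpl41, a small ribosomal protein gene, stood among the 10 highest at both stages, with 3859 and 3436 FPKM in adult brain and 5539.7 and 5482 FPKM at E19.5, a fall of 0.60 (adjusted p = 0.0361) that quantile scaling set to 0. Cst3, a protease inhibitor secreted by glia, was at 2749.5 and 2595 FPKM in adult brain and 647 and 688 FPKM at E19.5 (2.000, adjusted p = 0.000153). Apoe, the lipid carrier made by astrocytes, was at 1858 and 2020.1 FPKM in adult brain and 410.2 and 587 FPKM at E19.5, and Fth1, the ferritin heavy chain that stores iron, at 2800.0 and 2636 FPKM in adult brain and 765 and 776 FPKM at E19.5. Mt1, a metallothionein, was at 1886 and 1860.4 FPKM in adult brain and 180.4 and 194.8 FPKM at E19.5, a 9.98-fold difference in mean FPKM. At E19.5 the 10 highest also held Eef1a1, the translation elongation factor, at 1223 and 1282 FPKM in adult brain and 3084 and 2776 FPKM at E19.5 (-1.22, adjusted p = 0.00108). The stages did not overlap for the genes just given, beside 85.4% of all tested genes without overlap. Rplp1, among the 10 highest at both stages, did overlap (2676 and 2241 FPKM in adult brain, 2582 and 2299 FPKM at E19.5). Rps15, among the 10 highest at E19.5, overlapped too (1762 and 1568 FPKM in adult brain, 2423 and 1729 FPKM at E19.5).

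Genes of cell division were lower in adult brain almost throughout. Of 34 tested members of the list, 31 fell, 1 rose and 2 did not pass, with a median of -1.20 against -0.16 over all genes. All 19 tested mitosis genes fell, with a median of -1.24. Rrm2, a subunit of the reductase that makes deoxynucleotides, was at 1.32 and 1.11 FPKM in adult brain and 10.999 and 10.3 FPKM at E19.5 (-2.40, adjusted p = 6.75e-05). Top2a, the topoisomerase of dividing cells, was at 1.04 and 0.976 FPKM in adult brain and 7.02 and 6.59 FPKM at E19.5 (-1.96, adjusted p = 0.000102). The replicative helicase subunit Mcm6 was at 1.96 and 1.798 FPKM in adult brain and 9.58 and 9.09 FPKM at E19.5, and Mcm7 at 5.86 and 6.36 FPKM in adult brain and 21.1 and 19.4 FPKM at E19.5. All 4 lay under 10 FPKM in the adult libraries, and none of the 4 overlapped between stages, beside 85.4% of all tested genes without overlap. The G1 cyclin gene Ccnd1 was the exception, at 13.7 and 12.2 FPKM in adult brain and 10.5 and 10.5 FPKM at E19.5 (0.28, adjusted p = 0.0464, but -0.43 with adult set 2 in place of set 1), and E2f1 (0.20) and Gmnn (0.37) did not pass.

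The promoters of these genes are shown because cell cycle genes that are switched on together are known to share short promoter elements: the CHR element and CCAAT boxes of mitosis genes, and E2F sites of replication genes. The windows run from 250 bases before to 50 bases after the annotated start (RefSeq, GRCm38.p6, read 5′ to 3′ on the gene's strand), and capitals mark matches to the CHR element (TTTGAA), the CCAAT box (CCAAT) and the E2F motif (TTTGGCGC or TTTCCCGC), searched on both strands with overlaps allowed. Shown are the 3 mitosis and 3 replication members with the smallest p that have a promoter in the table, and this division of the list for display was made after the values were seen.
Top2a (chr11:99024140-99024439, minus strand): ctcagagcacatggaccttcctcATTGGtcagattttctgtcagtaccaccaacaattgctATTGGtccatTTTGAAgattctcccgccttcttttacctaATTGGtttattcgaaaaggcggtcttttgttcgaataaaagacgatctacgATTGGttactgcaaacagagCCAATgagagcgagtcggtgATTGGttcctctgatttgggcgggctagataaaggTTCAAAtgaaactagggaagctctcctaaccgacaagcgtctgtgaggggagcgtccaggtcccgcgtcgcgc
Mki67 (chr7:135716330-135716629, minus strand): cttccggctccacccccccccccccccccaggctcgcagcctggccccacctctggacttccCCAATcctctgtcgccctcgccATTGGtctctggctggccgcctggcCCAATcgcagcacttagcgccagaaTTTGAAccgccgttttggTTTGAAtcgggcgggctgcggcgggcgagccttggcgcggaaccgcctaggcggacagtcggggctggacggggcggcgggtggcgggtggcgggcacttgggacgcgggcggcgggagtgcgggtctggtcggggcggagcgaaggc
Ccnb1 (chr13:100786437-100786736, minus strand): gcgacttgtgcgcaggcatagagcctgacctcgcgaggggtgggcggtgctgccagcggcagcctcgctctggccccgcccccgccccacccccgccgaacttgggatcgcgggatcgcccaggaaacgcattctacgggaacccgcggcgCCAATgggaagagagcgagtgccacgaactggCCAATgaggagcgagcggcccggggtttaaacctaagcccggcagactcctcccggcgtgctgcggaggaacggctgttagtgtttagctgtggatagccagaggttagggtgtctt
Rrm2 (chr12:24708004-24708303, plus strand): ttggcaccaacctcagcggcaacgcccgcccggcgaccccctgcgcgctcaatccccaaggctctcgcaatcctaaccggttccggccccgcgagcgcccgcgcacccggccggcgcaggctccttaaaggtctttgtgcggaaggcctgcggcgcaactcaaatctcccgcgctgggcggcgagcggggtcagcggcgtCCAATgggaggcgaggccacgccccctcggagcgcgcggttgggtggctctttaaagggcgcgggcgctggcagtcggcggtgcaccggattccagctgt
Mcm6 (chr1:128359656-128359955, minus strand): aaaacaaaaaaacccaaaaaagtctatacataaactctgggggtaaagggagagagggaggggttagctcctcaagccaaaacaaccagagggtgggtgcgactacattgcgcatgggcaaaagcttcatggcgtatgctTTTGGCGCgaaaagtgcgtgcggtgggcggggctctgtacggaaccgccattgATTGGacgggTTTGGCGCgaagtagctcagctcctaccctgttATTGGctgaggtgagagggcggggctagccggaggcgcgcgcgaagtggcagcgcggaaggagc
Mcm7 (chr5:138171834-138172133, minus strand): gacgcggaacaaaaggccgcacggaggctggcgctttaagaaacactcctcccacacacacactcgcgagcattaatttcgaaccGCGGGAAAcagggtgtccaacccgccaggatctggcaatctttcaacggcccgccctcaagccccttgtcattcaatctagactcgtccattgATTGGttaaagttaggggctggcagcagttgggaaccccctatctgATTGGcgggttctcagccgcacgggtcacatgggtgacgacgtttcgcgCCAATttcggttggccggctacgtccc
The window of Top2a holds 2 CHR elements and 6 CCAAT boxes, that of Mki67 holds 2 and 3, and that of Ccnb1 holds CCAAT boxes only. Mcm6 holds 2 E2F motifs, Mcm7 holds 1 and Rrm2 none. CCAAT boxes also lie in these 3 windows, 2 in Mcm6, 3 in Mcm7 and 1 in Rrm2. Mki67, the proliferation antigen, was at 0.532 and 0.487 FPKM in adult brain and 3.77 and 3.77 FPKM at E19.5. Ccnb1, the cyclin of entry into mitosis, was at 0.362 and 0.289 FPKM in adult brain and 3.02 and 3.44 FPKM at E19.5. All 6 genes shown were lower in both adult libraries, beside 85.4% of all tested genes without overlap of the stages.

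Over the mitosis members, 16 of the 19 tested had a promoter in the table, and 12 of these (75%) held a CHR element together with a CCAAT box, against 4.43% of the 13841 promoters of all tested genes. The shares for each motif alone were 75% against 11.4% for CHR and 87.5% against 37.2% for CCAAT. Among the 10 promoters of 9 replication members, 5 (50%) held an E2F motif, against 2.72% of promoters of tested genes. A CCAAT box was in 9 (90%) of these 10, so its high share was not particular to mitosis members, and CHR was in 1 (10%). Over all genes that fell by at least 1, 5.37% of promoters held CHR with CCAAT and 3.69% an E2F motif, and over genes that rose by at least 1 the shares were 3.30% and 1.58%. A match of letters describes these windows, a window without one says nothing of the factor, and binding was not measured.

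Genes of neural progenitors were also lower. Of 20 tested members 17 fell and none rose, with a median of -0.91. Fabp7, the fatty acid binding protein of radial glia, changed most: 74.3 and 108 FPKM in adult brain against 969 and 1053 FPKM at E19.5 (-3.48, adjusted p = 8.04e-05). Nes, the intermediate filament of neural stem cells, was at 1.78 and 1.92 FPKM in adult brain and 11.01 and 10.03 FPKM at E19.5. Hes6, which favours neuronal differentiation, was at 6.96 and 6.09 FPKM in adult brain and 29.1 and 26.6 FPKM at E19.5, and the cadherin gene Cdh2 fell by 1.62. The Notch effectors Hes1 and Hes5 did not pass, at 5.96 and 4.82 FPKM in adult brain and 4.96 and 4.63 FPKM at E19.5 for Hes1, and 20.5 and 21.5 FPKM in adult brain and 20.1 and 23.9 FPKM at E19.5 for Hes5, where the stages overlapped.

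The list of immature neurons and growth cones had the lowest median of all 37 lists, -2.73, and all 26 tested members fell. Together they made up 0.526% and 0.590% of the summed FPKM in the adult libraries, against 3.15% and 3.23% in the E19.5 libraries. Crmp1, a relative of Dpysl3, was at 66.7 and 65.3 FPKM in adult brain and 603 and 575 FPKM at E19.5. The transcription factor gene Sox4 was at 12.5 and 11.9 FPKM in adult brain and 166 and 141 FPKM at E19.5. Tuba1a, the alpha tubulin of young neurons, was among the 10 most abundant genes at E19.5, with 212 and 247 FPKM in adult brain against 2190.5 and 2323 FPKM at E19.5 (-3.30, adjusted p = 5.27e-05). These genes were not silent in the adult: Gap43, which marks growing and remodelling axons, was still at 195.1 and 248 FPKM in adult brain, against 741 and 842 FPKM at E19.5.

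Axon guidance genes fell in 31 of 40 cases and rose in 5, with a median of -1.18. The falls covered ligands (11 of 14), receptors (16 of 19) and adhesion molecules (4 of 7). Ephb2, a receptor of B-type ephrins, was at 3.96 and 3.97 FPKM in adult brain and 24.9 and 29.5 FPKM at E19.5 (-2.50, adjusted p = 6e-05). The semaphorin receptor genes Plxna1 and Plxna3 fell by 1.83 and 1.998, and their partner Nrp1 fell by 1.86. Unc5b, a netrin receptor gene, went the other way, with 7.53 and 8.79 FPKM in adult brain and 2.16 and 2.73 FPKM at E19.5 (1.41, adjusted p = 0.00041), as did the Slit ligand gene Slit3 (1.08). The adhesion genes Cntn1 and Nrcam, which also build nodes of mature axons, did not pass (-0.10 and -0.040).

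Genes of synaptic vesicle release were higher in adult brain in 26 of 32 cases, lower in 2, and had a median of 1.06. Snap25, the SNARE protein of the presynaptic membrane, was 7.48-fold higher in adult brain by mean FPKM (adjusted p = 7.04e-05). Cplx1, which clamps SNARE complexes until calcium enters, was at 336 and 292 FPKM in adult brain and 54.5 and 55.2 FPKM at E19.5 (2.49, adjusted p = 5.27e-05). Both genes were several-fold higher in each adult library than in either E19.5 library. Rph3a, a Rab3 effector on vesicles, was at 130.3 and 105 FPKM in adult brain and 36.5 and 33.6 FPKM at E19.5. All 9 vesicle protein genes rose. Syt4, an atypical synaptotagmin, fell to 39.9 and 38.7 FPKM in adult brain, against 93.7 and 87.9 FPKM at E19.5, and the active zone gene Erc2 fell by 1.03. Stx1a did not pass, at 139 and 80.2 FPKM in adult brain and 78.8 and 85.4 FPKM at E19.5.

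On the receiving side, 23 of 37 genes of the excitatory postsynapse rose and 11 fell, with a median of 0.67. All 7 signalling genes rose, with a median of 2.81, and 9 of 12 scaffold genes rose while none fell. Receptor subunits were divided, 6 up and 6 down, and 5 of the 6 genes placed under synaptic adhesion fell. Under median-of-ratios scaling 3 receptor and 2 adhesion genes fell, and the receptor median, -0.011, became 0.18. With adult set 2 in place of set 1 the falls of the whole list numbered 6. Camk2a, the kinase of synaptic plasticity, was at 813 and 472 FPKM in adult brain and 32.9 and 27.3 FPKM at E19.5 (4.32, SE 0.26, adjusted p = 0.000103). Its inhibitor gene Camk2n1 was at 418 and 264 FPKM in adult brain and 27.0 and 32.9 FPKM at E19.5. Icam5, an adhesion molecule of forebrain dendrites, was at 86.2 and 58.9 FPKM in adult brain and 7.82 and 6.79 FPKM at E19.5. It rose by 3.12 and is counted under another heading of the list, not among the 6 adhesion genes. Their falls therefore do not hold for every adhesion gene, and the counts by heading do not sort every gene by its function. Adult replicate 1 was the higher adult library for Camk2a, Camk2n1 and Icam5. Both adult libraries were above both E19.5 libraries for these 3 genes, beside 85.4% of all tested genes without overlap. Grin2c, an NMDA receptor subunit that appears late, was at 20.7 and 20.8 FPKM in adult brain and 0.493 and 0.774 FPKM at E19.5 (3.74, adjusted p = 3.89e-05). Among the receptor genes that fell, Grin3a, an NMDA receptor subunit of juvenile synapses, was at 3.40 and 4.53 FPKM in adult brain and 14.2 and 16.3 FPKM at E19.5, and the metabotropic receptor gene Grm5 at 21.1 and 18.6 FPKM in adult brain and 32.2 and 31.0 FPKM at E19.5.

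Of 20 tested genes of GABA signalling, 11 rose and 4 fell (median 0.47). Gabra4, an alpha subunit of GABA-A receptors, was at 19.05 and 20.5 FPKM in adult brain and 5.57 and 5.35 FPKM at E19.5 (1.68, adjusted p = 9.05e-05). Gabrd, the delta subunit of receptors outside synapses, was at 58.0 and 42.8 FPKM in adult brain and 2.44 and 0.724 FPKM at E19.5. Gabra5, the alpha subunit of tonic inhibition in the hippocampus, fell to 12.8 and 11.03 FPKM in adult brain, against 37.1 and 30.2 FPKM at E19.5. Gabra2, a further alpha subunit gene, did not pass (0.070).

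Voltage-gated channels showed 24 rises and 10 falls among 38 genes, with a median of 1.01. The auxiliary sodium channel subunits Scn2b and Scn4b rose by 3.75 and 5.56. Scn4b, which shapes resurgent sodium current, was at 56.1 and 55.5 FPKM in adult brain and 0.241 and 0.171 FPKM at E19.5 (adjusted p = 3.02e-05). A further subunit gene, Scn3b, fell to 23.5 and 25.8 FPKM in adult brain, against 71.1 and 69.6 FPKM at E19.5. Potassium channel genes rose in 12 of 16 cases, among them Kcna1 (20.7 and 18.4 FPKM in adult brain and 2.05 and 1.69 FPKM at E19.5), an axonal delayed rectifier. Calcium channel genes were divided, with 5 rises and 4 falls. Of 14 ion pump and exchanger genes 10 rose and 2 fell (median 0.80). Atp2b2, a plasma membrane calcium pump gene, rose by 1.99, and Slc8a1, a sodium and calcium exchanger gene, fell to 10.7 and 10.1 FPKM in adult brain, against 26.6 and 25.9 FPKM at E19.5.

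The neuronal cytoskeleton list was divided, with a share of falls near that of all genes (8 rises and 7 falls among 17 genes, median 0.18). Tuba4a, an alpha tubulin of mature neurons, was at 276 and 228 FPKM in adult brain and 20.5 and 27.5 FPKM at E19.5 (3.35, adjusted p = 6.78e-05). Mapt, which encodes tau, moved the other way, with 108 and 106 FPKM in adult brain and 417 and 449 FPKM at E19.5 (-2.005, adjusted p = 6.71e-05), as did the beta tubulin gene Tubb2a (278 and 366 FPKM in adult brain, 1742 and 1987 FPKM at E19.5). Tubulin genes are near-identical in coding sequence, so reads may be split between copies and their levels are uncertain.

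**Figure D2:**
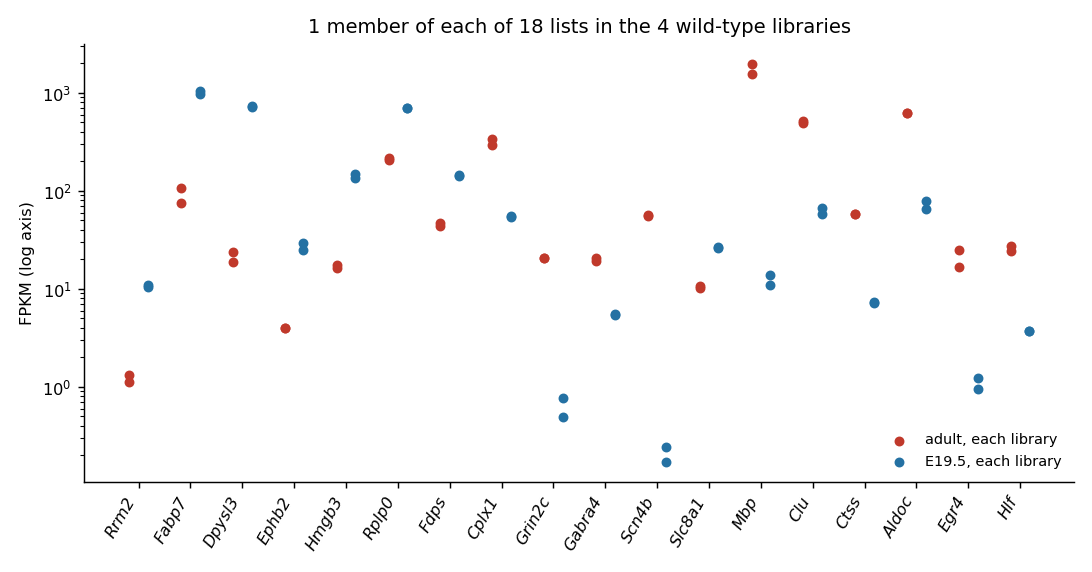
FPKM on a log axis in each of the 4 wild-type libraries, adult libraries left and E19.5 libraries right within each gene, for 1 member of each of 18 lists. From Rrm2 to Fdps and for Slc8a1 both adult points lie below both E19.5 points, and for the other genes above them.

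Relatives that are known to replace each other with age were compared as 19 pairs, each with a gene named for its early use and a gene named for its late use, as the log2 ratio of late to early (FPKM + 1) within a library. The ratio was higher in the adult mean for 18 of 19 pairs. The pairs were chosen with earlier results of these data known, so this count describes them and tests nothing. In 7 pairs the more abundant gene changed from the early to the late one, and in 8 pairs the early gene fell and the late gene rose. For Nrgn and Gap43, which bind calmodulin in dendrites and in axons, the ratio was 2.24 and 1.03 in the adult libraries and -2.91 and -3.12 in the E19.5 libraries. For the tenascin genes Tnr and Tnc it was 2.75 and 2.56 in the adult libraries and -1.52 and -1.83 in the E19.5 libraries, and for the microtubule protein genes Map1a and Map1b it was 0.60 and 0.26 in the adult libraries and -3.59 and -3.24 in the E19.5 libraries. In all 3 pairs the ratio was above 0 in both adult libraries and below 0 in both E19.5 libraries. For the sodium channel genes Scn8a and Scn3a the ratio was 2.42 and 1.86 in the adult libraries against -0.90 and -0.90 in the E19.5 libraries. Tubb4a over Tubb3, a beta tubulin of glia and mature neurons over that of young neurons, stood at 0.65 and 0.46 in the adult libraries and -2.93 and -3.07 in the E19.5 libraries. For Ezh1 and Ezh2, the catalytic subunits of a Polycomb repressive complex, the ratio was 2.33 and 2.01 in the adult libraries and -1.15 and -0.60 in the E19.5 libraries, with Ezh2 at 1.85 and 2.42 FPKM in adult brain and 20.4 and 16.0 FPKM at E19.5.

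In the other 12 pairs the more abundant gene was the same at both stages. For the NMDA receptor genes Grin2a and Grin2b the ratio was -0.49 and -0.54 in the adult libraries against -3.53 and -2.94 in the E19.5 libraries, so Grin2b stayed the more abundant of the pair in adult brain while Grin2a rose (13.1 and 9.64 FPKM in adult brain, 1.17 and 1.84 FPKM at E19.5). For the chloride exporter gene Slc12a5 and the importer gene Slc12a2, whose balance sets the direction of GABA currents, the ratio was 3.26 and 2.90 in the adult libraries against 2.08 and 2.79 in the E19.5 libraries, and both genes rose. The exception in direction was Ptbp2 over Ptbp1, at 0.61 and 0.57 in the adult libraries and 1.45 and 1.14 in the E19.5 libraries, where both splicing repressor genes fell. The ratios of Nrp2 to Nrp1 and of Igf1 to Igf2 differed by 0.13 and 0.38 between the stage means. Stages overlapped for Nrp2 over Nrp1, at 0.19 and 0.73 in the adult libraries and 0.56 and 0.11 in the E19.5 libraries. For the lecticans Bcan and Vcan the later gene already led at E19.5 (4.67 and 4.67 in the adult libraries, 0.81 and 1.59 in the E19.5 libraries), as it did for the thymosin genes Tmsb4x and Tmsb10 (2.87 and 2.34 in the adult libraries, 1.51 and 1.08 in the E19.5 libraries), where both genes fell.

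**Figure D3:**
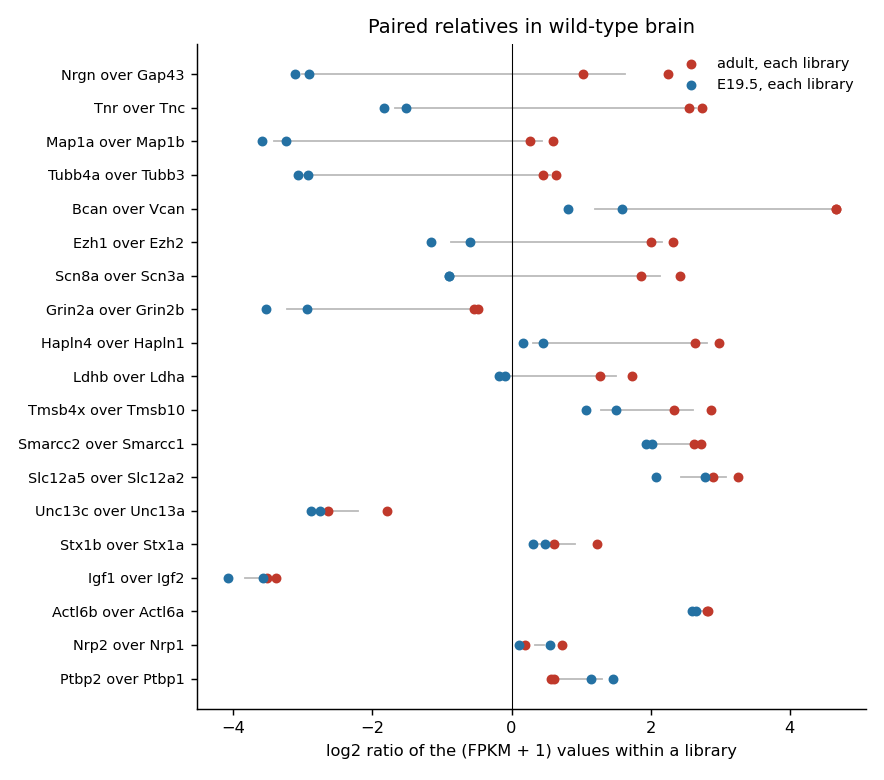
log2 ratio of the late to the early member of 19 gene pairs within each library (horizontal axis), with adult libraries in red, E19.5 libraries in blue and grey lines joining the stage means. The adult points lie right of the E19.5 points for most pairs, and left of them for Ptbp2 over Ptbp1.

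Myelin genes gave the highest median of the lists, 3.59, and all 24 rose. They made up 0.718% and 0.984% of the summed FPKM in the adult libraries, against 0.0156% and 0.0197% in the E19.5 libraries, and Opalin and Klk6 were listed at 0 in both E19.5 libraries, so that their fitted changes rest on the added 1 FPKM. They lie on either side of the list's median, which is the same without them. Compact myelin genes led (median 6.49 over 5), and the 3 lipid synthesis genes had a median of 3.12. Mag, an adhesion protein between axon and myelin, was at 80.3 and 108 FPKM in adult brain and 1.62 and 2.202 FPKM at E19.5, and Mal, a proteolipid of myelin rafts, at 62.9 and 95.3 FPKM in adult brain and 0.493 and 0.759 FPKM at E19.5. Adult replicate 2 was the higher adult library for Mbp, Mobp, Mal, Mag, Opalin and Klk6. Among 10 genes of oligodendrocyte precursors 3 rose and 2 fell (median -0.17, or 0.0057 under median-of-ratios scaling), beside 26.0% rises and 40.3% falls of all genes. With adult set 2 in place of set 1, 1 rose and 6 fell (median -0.67). Gpr17, a receptor of cells about to form myelin, was at 17.9 and 19.4 FPKM in adult brain and 4.93 and 6.92 FPKM at E19.5, and Sox10, a transcription factor of the whole lineage, at 19.4 and 24.6 FPKM in adult brain and 6.18 and 7.12 FPKM at E19.5, both higher in adult brain (1.52 and 1.58). Vcan, a large matrix proteoglycan, fell to 3.85 and 3.94 FPKM in adult brain, against 28.0 and 21.9 FPKM at E19.5, and Pdgfra, the growth factor receptor that defines precursors, did not pass (13.1 and 13.1 FPKM in adult brain, 14.8 and 16.3 FPKM at E19.5).

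Astrocyte genes rose in 21 of 23 cases and fell in none, with a median of 2.19, and took 1.54% and 1.60% of the summed FPKM in the adult libraries against 0.255% and 0.331% in the E19.5 libraries. Clu, which encodes the secreted chaperone clusterin, was at 519 and 491 FPKM in adult brain and 58.6 and 66.9 FPKM at E19.5 (2.99, adjusted p = 4.27e-05). Kcnj10, the potassium channel of astrocyte endfeet, was at 69.1 and 85.5 FPKM in adult brain and 7.07 and 7.91 FPKM at E19.5. Aldoc, the brain form of aldolase, was at 626 and 616 FPKM in adult brain and 65.6 and 79.4 FPKM at E19.5, and Mt3, a metallothionein, at 1053 and 996 FPKM in adult brain and 121 and 137 FPKM at E19.5. All 7 transport genes and all 3 junction genes of the list rose, with medians of 1.38 for transport and 2.76 for junctions. Aldh1l1 and Sox9, which are used to mark astrocytes, did not pass, at 31.1 and 31.0 FPKM in adult brain and 27.9 and 34.0 FPKM at E19.5 for Aldh1l1, and 11.2 and 10.1 FPKM in adult brain and 8.91 and 9.97 FPKM at E19.5 for Sox9.

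All 17 microglia genes rose, with a median of 1.71. Ctss, a lysosomal protease, was at 58.4 and 58.0 FPKM in adult brain and 7.37 and 7.13 FPKM at E19.5 (2.84, adjusted p = 3.34e-05). C1qa, which starts the classical complement cascade, was at 54.6 and 45.2 FPKM in adult brain and 9.43 and 9.57 FPKM at E19.5, and Csf1r, the receptor on which microglia depend, at 41.3 and 34.0 FPKM in adult brain and 6.89 and 7.38 FPKM at E19.5. Tmem119, a marker of mature microglia, was at 11.8 and 10.3 FPKM in adult brain and 0.932 and 1.23 FPKM at E19.5. Both adult libraries lay above both E19.5 libraries for these 4 genes, which were picked by small p, and 85.4% of all tested genes did not overlap. Receptor genes had a higher median (2.05 over 7) than complement genes (1.88 over 3).

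Of 20 vessel genes, 7 rose, 4 fell and 9 did not pass (median 0.095), beside 26.0% rises and 40.3% falls of all genes. The receptors of vascular endothelial growth factor moved apart: Flt1 rose to 7.32 and 7.45 FPKM in adult brain, against 2.83 and 2.61 FPKM at E19.5, and Kdr, which drives vessel growth, fell to 2.78 and 2.78 FPKM in adult brain, against 7.64 and 7.41 FPKM at E19.5. The transporter gene Slco1a4 and the surface antigen gene Ly6c1 rose by 1.94 and 2.64. Globin values differed more between replicates than between stages: Hbb-b1 was at 0.0609 and 112 FPKM in adult brain and 0.0289 and 232 FPKM at E19.5, with replicate 2 high in each stage, and the gene has near-identical copies that make its level uncertain.

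Meningeal and collagen genes fell in 8 of 15 cases and rose in 2 (median -0.67), beside 40.3% falls and 26.0% rises of all genes. Col4a1 of basement membranes fell (8.82 and 9.33 FPKM in adult brain, 22.1 and 24.1 FPKM at E19.5), while Col6a1 rose by 1.69 and Sparc by 1.01. Choroid plexus genes fell in 6 of 9 cases, with Kl, which encodes klotho, as the rise (1.32) and a median of -1.11. With adult set 2 in place of set 1 there were 3 rises and 4 falls among 10 genes (median -0.35). Sostdc1 was at 1.81 and 1.17 FPKM in adult brain and 5.30 and 4.19 FPKM at E19.5. The share of these tissues in each dissection is not given in the labels. In the brain's own matrix Hapln4, a link protein of perineuronal nets, was at 28.5 and 25.7 FPKM in adult brain and 0.899 and 0.890 FPKM at E19.5 (3.89, adjusted p = 3.29e-05), and Ncan, which encodes the lectican neurocan, was at 50.2 and 43.5 FPKM in adult brain and 128 and 136 FPKM at E19.5.

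Glycolysis genes rose in 15 of 20 cases and fell in none (median 0.97). Eno2, the enolase of neurons, was at 306 and 286 FPKM in adult brain and 44.9 and 53.6 FPKM at E19.5 (2.57, adjusted p = 6.02e-05), and Tpi1, a triose isomerase, at 339 and 302 FPKM in adult brain and 100.2 and 107 FPKM at E19.5. Ldhb, the lactate dehydrogenase subunit that favours lactate use, was at 475 and 494 FPKM in adult brain and 141 and 144 FPKM at E19.5, while Ldha did not pass (197 and 147 FPKM in adult brain, 159 and 155 FPKM at E19.5). Nuclear genes of oxidative phosphorylation moved less: 25 of 46 rose and none fell (median 0.30), among them Cox8a (2258 and 1659 FPKM in adult brain, 679 and 686 FPKM at E19.5) and Sdha (139.5 and 139 FPKM in adult brain, 65.3 and 70.6 FPKM at E19.5). By complex, rises were 11 of 16 for complex I, 1 of 4 for complex II, 4 of 7 for complex III, 6 of 9 for complex IV and 3 of 10 for complex V. With adult set 2 in place of set 1 the oxidative phosphorylation list turned round, to 4 rises, 18 falls and a median of -0.28.

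Ribosomal protein genes fell as a group, with 57 falls, 1 rise and 18 that did not pass among 76 (median -0.70). Their share of the summed FPKM was 10.2% and 10.1% in the adult libraries, against 14.8% and 13.3% in the E19.5 libraries. Rplp0, a protein of the ribosomal stalk, was at 217 and 205 FPKM in adult brain and 701 and 694 FPKM at E19.5 (-1.72, adjusted p = 0.000104). Rps2 was at 265 and 248 FPKM in adult brain and 569.5 and 547 FPKM at E19.5, and Rps21 rose, at 2659 and 2795 FPKM in adult brain and 1569.7 and 1642 FPKM at E19.5. Ribosomal protein genes have many processed pseudogenes that can take up reads, so levels of members are uncertain, and with set 2 in place of set 1 the falls numbered 74, with none of the 76 rising.

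Genes of cholesterol synthesis fell in 16 of 19 cases, with 1 rise and a median of -0.88. Fdps, which makes farnesyl diphosphate, was at 46.9 and 43.8 FPKM in adult brain and 145 and 143 FPKM at E19.5 (-1.65, adjusted p = 7.75e-05). Hmgcs1 and Sqle fell by 1.40 and 1.58. Ebp, a sterol isomerase gene, was the rise (0.59), and Sc4mol and Sc5d did not pass.

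Chromatin genes fell in 27 of 35 cases and rose in 3 (median -0.88). Hmgb3, a high mobility group protein of progenitors, was at 16.1 and 17.4 FPKM in adult brain and 149.7 and 135 FPKM at E19.5 (-3.01, adjusted p = 3.6e-05), and Hmgb1 at 60.8 and 59.0 FPKM in adult brain and 214 and 186 FPKM at E19.5. Dnmt1, the maintenance DNA methyltransferase, was at 12.004 and 11.996 FPKM in adult brain and 38.1 and 36.0 FPKM at E19.5 (-1.55, adjusted p = 8.5e-05). Of 11 BAF remodelling complex genes 9 fell and none rose, including the neuronal subunit gene Actl6b, which fell by 0.68. Hdac11, a deacetylase gene, rose by 1.65, and Mbd2, which reads methylated DNA, by 0.89.

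RNA-binding regulators fell in 18 of 28 cases and rose in 6 (median -0.88). Srsf3 and Rbfox2 fell by 1.46 and 1.47, whereas Mbnl2, a splicing regulator of later development, rose to 33.1 and 31.6 FPKM in adult brain, against 6.39 and 5.85 FPKM at E19.5 (adjusted p = 5.27e-05).

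Genes induced by activity and genes of hormone action were counted as lists, with the test made gene by gene and not on the list. Immediate early genes rose in 12 of 14 cases and fell in 1 (median 1.999). Arc, which acts at active synapses, was at 139.6 and 61.9 FPKM in adult brain and 1.30 and 1.30 FPKM at E19.5, and the transcription factor gene Egr4 at 24.7 and 16.5 FPKM in adult brain and 1.22 and 0.940 FPKM at E19.5. Junb, of the AP-1 family, was at 53.1 and 34.2 FPKM in adult brain and 3.93 and 2.84 FPKM at E19.5. Adult replicate 1 was the higher adult library for all 3, and Nr4a3 was the fall (-1.38, but 0.0090 with adult set 2 in place of set 1). Npas4, which neurons induce through calcium entry, was at 11.1 and 9.03 FPKM in adult brain and 2.59 and 2.19 FPKM at E19.5. Among genes of thyroid and glucocorticoid hormone action 9 of 14 rose and 4 fell. Klf9, which both hormones induce, was at 45.6 and 37.3 FPKM in adult brain and 6.79 and 5.28 FPKM at E19.5, and Dio2, which makes active thyroid hormone in glia, at 16.7 and 11.8 FPKM in adult brain and 2.39 and 2.02 FPKM at E19.5. The glucocorticoid receptor gene Nr3c1 was at 17.0 and 15.9 FPKM in adult brain and 4.42 and 4.49 FPKM at E19.5 (1.68, adjusted p = 9.52e-05). Fkbp5, a chaperone gene of the glucocorticoid receptor, fell by 0.92.

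Of 14 clock genes 13 rose and 1 fell (median 1.20). Hlf, a transcription factor of clock output, was at 27.5 and 24.6 FPKM in adult brain and 3.72 and 3.70 FPKM at E19.5 (2.52, adjusted p = 5e-05), and the repressor gene Nr1d1 at 47.5 and 42.4 FPKM in adult brain and 11.8 and 11.1 FPKM at E19.5. Cry1 was the fall (-0.53). The hour of sampling is not given in the labels. Genes of MHC class I and the interferon response rose in 10 of 12 cases (median 1.55), but here the adult libraries differed: B2m, the light chain of class I molecules, was at 154 and 84.0 FPKM in adult brain and 28.2 and 30.2 FPKM at E19.5, and the interferon-induced gene Irf7, which did not pass, at 8.55 and 1.01 FPKM in adult brain and 0.187 and 0.375 FPKM at E19.5.

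Genes used as markers of brain regions also differed between the stages. All 10 striatal genes rose (median 2.24), with Penk, the enkephalin precursor of striatal output neurons, at 228 and 259 FPKM in adult brain and 16.3 and 9.48 FPKM at E19.5, and the dopamine receptor gene Drd2 at 30.1 and 30.8 FPKM in adult brain and 6.55 and 7.58 FPKM at E19.5. Of 11 tested hypothalamic and pituitary genes 7 rose and none fell (median 1.44). With adult set 2 in place of set 1, 3 of 8 rose and 1 fell (median 0.51). Oxt, the oxytocin precursor, was at 116 and 198 FPKM in adult brain and 5.72 and 6.96 FPKM at E19.5, and the orexin gene Hcrt at 11.8 and 50.5 FPKM in adult brain and 3.06 and 3.66 FPKM at E19.5. Gh, the growth hormone gene of the pituitary, was at 6.95 and 10.6 FPKM in adult brain, and Prl, the prolactin gene, at 11.04 and 20.4 FPKM in adult brain, both listed at 0 in both E19.5 libraries. Adult replicate 2 was the higher adult library for Oxt, Hcrt, Gh, Prl and Pmch, the melanin-concentrating hormone gene (10.1 and 62.9 FPKM in adult brain, 12.7 and 11.2 FPKM at E19.5, not passed), and adult replicate 1 for Camk2a, Icam5 and Cck. The part of dissection in these results was not tested.

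Cerebellar markers rose in 3 and fell in 4 of 9 tested cases (median -0.18), beside 26.0% rises and 40.3% falls of all genes. The rises were Calb1, Itpr1 and Pvalb, which are also made by neurons outside the cerebellum, and Pvalb was at 53.3 and 50.2 FPKM in adult brain and 1.58 and 0.629 FPKM at E19.5. With set 2 in place of set 1, 10 of 12 rose and none fell (median 2.70). The falls seen with set 1 therefore hold for that set only. The same exchange of sets also moved other list medians by over 1.5 times with no change of sign: to 1.23 for striatal genes, 0.93 for microglial genes, 0.88 for GABA signalling, 0.18 for vessel genes, 1.25 for hormone genes and -0.68 for interneuron and neuropeptide genes. It was -1.66 for ribosomal proteins, -1.36 for cholesterol synthesis, -0.52 for RNA-binding regulators, -0.25 for paternally expressed imprinted genes and -0.52 for IGF and growth genes. Cortical transcription factor genes fell in 10 of 16 cases and rose in none (median -0.99), among them Bcl11a (27.4 and 23.6 FPKM in adult brain, 94.9 and 66.3 FPKM at E19.5) and Foxp2 (4.92 and 6.70 FPKM in adult brain, 19.2 and 20.2 FPKM at E19.5). In the list of interneuron and neuropeptide genes 5 of 16 rose and 5 fell (median -0.34), beside 26.0% rises and 40.3% falls of all genes. The peptide genes Cck and Vip rose by 3.25 and 2.79, and the homeobox gene Dlx1, which acts in migrating interneurons, fell to 4.34 and 5.58 FPKM in adult brain, against 28.0 and 15.0 FPKM at E19.5.

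**Figure D4:**
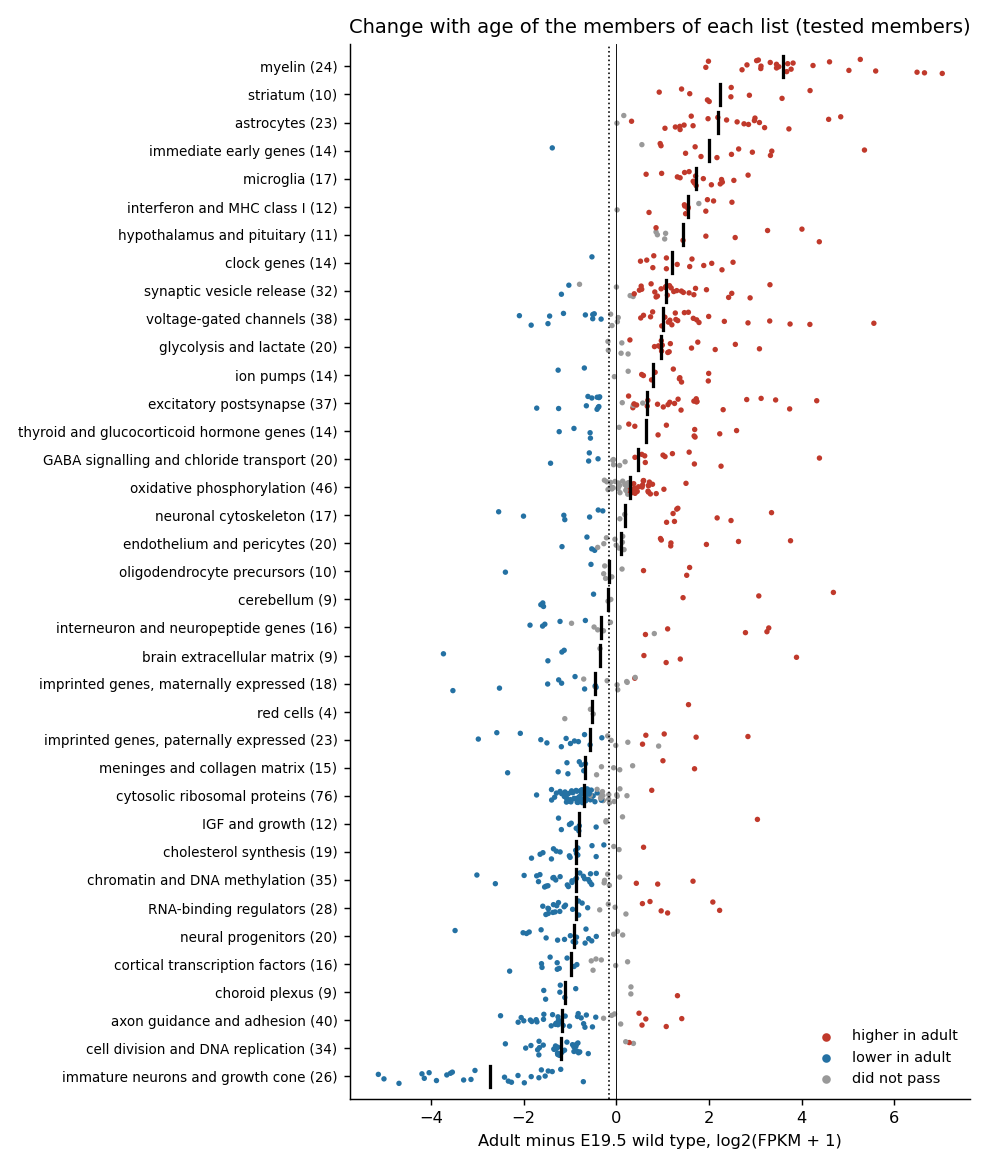
Change of each tested member (points) of the 37 lists, adult minus E19.5 wild type on log2(FPKM + 1), with the number of tested members in brackets, black bars at list medians and the dotted line at the median of all tested genes, -0.16. Points are red where the gene rose, blue where it fell and grey where it did not pass, and myelin stands at the top with immature neurons at the bottom.

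Imprinted genes are expressed from the copy inherited from 1 parent, and many promote or restrain growth before birth. Of 23 tested genes expressed from the paternal copy 13 fell and 5 rose (median -0.57). Of 18 tested genes expressed from the maternal copy 9 fell and 1 rose (median -0.46). Both medians were lower than the -0.16 of all genes, and the share of falls among tested members was 13 of 23 and 9 of 18 beside 40.3% of all genes. Under median-of-ratios scaling the falls numbered 9 and 8. Mest, a hydrolase gene of growing tissues, was at 15.1 and 16.2 FPKM in adult brain and 51.6 and 49.8 FPKM at E19.5, and the cell cycle inhibitor gene Cdkn1c at 3.86 and 3.31 FPKM in adult brain and 24.1 and 26.5 FPKM at E19.5. H19, a noncoding RNA of fetal tissues, was at 0.929 and 0.672 FPKM in adult brain and 16.0 and 24.3 FPKM at E19.5 (-3.53, adjusted p = 0.0001). Rasgrf1, an exchange factor for Ras in neurons, went against them, with 89.5 and 100.4 FPKM in adult brain and 12.03 and 12.7 FPKM at E19.5 (2.84, adjusted p = 3.89e-05), and Impact, a translation regulator gene, rose by 1.72. Mkrn3, which restrains the onset of puberty, was at 0.570 and 0.532 FPKM in adult brain and 7.58 and 9.03 FPKM at E19.5. Meg3, a maternally expressed noncoding RNA gene, did not pass, at 649 and 651 FPKM in adult brain and 560.0 and 723 FPKM at E19.5, and its difference was -0.75 with adult set 2 in place of set 1. Nnat was among the 10 most abundant genes at E19.5, with 219.7 and 401 FPKM in adult brain and 2349.5 and 2349.7 FPKM at E19.5. Of 12 genes of insulin-like growth factor signalling 8 fell and 1 rose (median -0.81), beside 40.3% falls and 26.0% rises of all genes. The receptor gene Igf1r was at 9.36 and 8.90 FPKM in adult brain and 17.4 and 17.5 FPKM at E19.5. The binding protein gene Igfbp2 was at 40.2 and 36.7 FPKM in adult brain and 78.8 and 78.3 FPKM at E19.5, and Igfbp6 was the rise (3.04).

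By genomic class, genes that rose by at least 1 had a median length of 20.4 kb and those that fell by at least 1 of 27.4 kb, against 24.2 kb over all tested genes (RefSeq lengths). The X chromosome held 36 of the 1410 rises and 81 of the 1613 falls, beside 469 of all 13575. Promoters of genes that rose by at least 1 had a median of 15 CpG dinucleotides in the same 300 bases, against 21 for genes that fell and 20 for all tested genes.

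The change with age in KO2 was taken between libraries that are not part of the wild-type change. The KO2 calls, however, came from a larger fit that also held the wild-type libraries, which entered its spread between libraries. The genes tested were those kept by the filter on the wild-type libraries. The KO2 counts are therefore not independent of the wild-type counts, which came from the smaller wild-type fit. In KO2 brain 3422 genes rose (25.2%) and 4728 fell (34.8%), and the all-gene median was -0.094. Of the 8994 genes that passed in wild type, 8461 (94.1%) had the same sign in KO2, and of the 3023 with a change of at least 1, 3000 did. The correlation of the changes across genes, a description over genes that are not independent replicates, was 0.902. The change with age differed between KO2 and wild type for 386 genes (2.84%) by the interaction in limma, of which 236 were more positive in KO2 (1.74%) and 150 more negative (1.10%). That split turned to 107 and 177 under median-of-ratios scaling. This count rests on few libraries: without E19.5 wild-type replicate 1 it was 1, and without the other libraries in turn 6 to 155.

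Txnip, which encodes a thioredoxin-binding protein that responds to glucose, had the largest positive difference among genes that passed (3.41, SE 0.20, adjusted p = 0.000224). It was at 12.2 and 13.2 FPKM in adult KO2 brain and 5.01 and 5.16 FPKM in E19.5 KO2 brain, against 5.61 and 6.98 FPKM in adult and 35.7 and 30.9 FPKM in E19.5 wild-type brain, so that it rose with age in KO2 and fell in wild type. Mbp was at 1255 and 1917 FPKM in adult KO2 brain and 89.3 and 42.1 FPKM in E19.5 KO2 brain, and its change in KO2 minus that in wild type was -2.40 (SE 0.45, adjusted p = 0.0348). The metallothionein gene Mt1 was at 975 and 1185 FPKM in E19.5 KO2 brain, against 180.4 and 194.8 FPKM in E19.5 wild-type brain (difference of the changes -2.68), and Mt3 at 439 and 637 FPKM in E19.5 KO2 brain, against 121 and 137 FPKM in E19.5 wild-type brain (-2.70). For Mbp, Mt1 and Mt3 the E19.5 KO2 libraries lay above the E19.5 wild-type libraries. Of the lists, 7 of 19 cholesterol synthesis genes, 5 of 23 astrocyte genes, 4 of 20 vessel genes and 4 of 24 myelin genes passed, beside 2.84% of all genes. The vessel median was -0.23 in KO2 against 0.095 in wild type. The astrocyte median was 1.10 in KO2 against 2.19 in wild type, the myelin median 2.93 in KO2 against 3.59 in wild type, and the cholesterol synthesis median -0.62 in KO2 against -0.88 in wild type. Immature neurons had a median of -2.67 in KO2 against -2.73 in wild type, and none of the 26 passed the interaction.

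**Figure D5:**
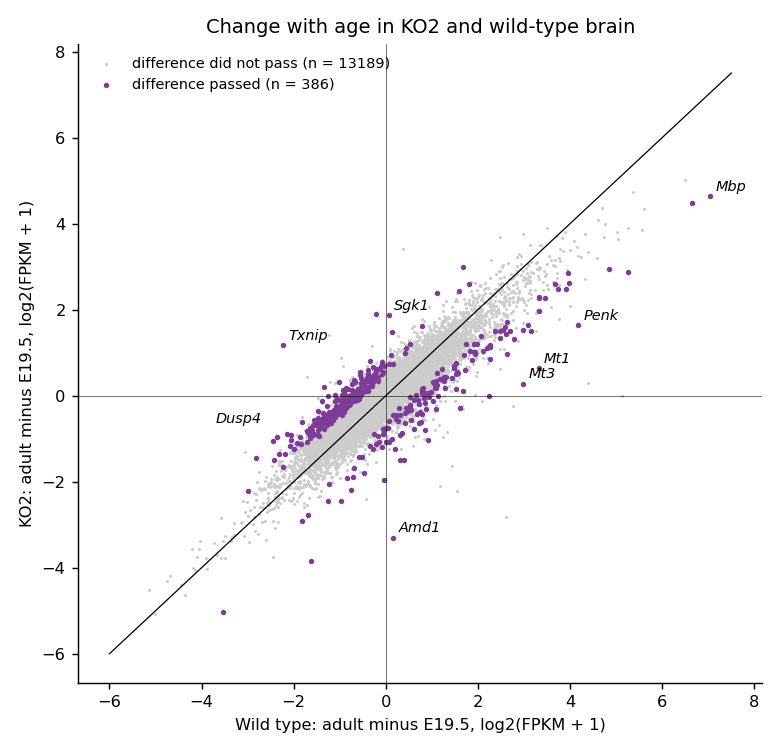
Change with age, adult minus E19.5 on log2(FPKM + 1), in KO2 brain (vertical axis) and wild-type brain (horizontal axis) for 13575 genes, with the line of equal change. The 386 genes whose change differed by the interaction are purple, and 8 of the 10 with the largest differences among genes that passed are named.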

How the data were processed

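Poly(A)+ RNA of tissue labelled brain was sequenced, per the labels' protocols. The authors deposited 1 table of FPKM per gene for all 14 libraries, with no counts. A header row inside it reads FPKM for 10 of the columns, and the other 4 (adult set 2 and KO3) were taken as FPKM from their values. The submitters' processing notes name mm9 as the build and Cufflinks 2.2.1, TopHat2 2.1.1 and CASAVA as tools; their settings, and whether strand was used, were not given in the sources used here. 2 rows naming no gene and 733 rows for Mir, Snor and Scarna genes, whose values reach 105787000, were left out. Genes reaching 1 FPKM in 2 or more of the 4 wild-type libraries were tested on log2(FPKM + 1) with limma 3.58.1 (R 4.3.3; trend, moderated, 2-sided, Benjamini-Hochberg over all 13575 genes, threshold 0.05). The wild-type fit used 4 libraries, and the KO2 calls and the KO2 interaction used 10. Script steps used Python 3.11.15 with pandas 2.3.3 and matplotlib 3.10.9, and the fits were tested on simulated data.

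The members, the 37 gene lists (828 genes, 795 tested, 29 below the filter, 1 left out by its name, 3 not in the table) and the 19 pairs were chosen with earlier results of these data known. Genes are named by a rule: the 12 largest rises and falls among non-overlapping genes of at least 5 FPKM, the 10 highest in each stage, up to 4 members of each list with the smallest p, up to 2 that passed the other way and up to 2 of the highest that did not pass, both genes of each pair, and the 5 largest interactions each way. Tissue markers, sex-linked genes, Klk6, Mki67, Ccnb1 and 3 interferon-induced genes stand outside it, and some genes that it names are not reported here. Promoters came from RefSeq (GRCm38.p6), matched by symbol for 21625 genes and by synonym for 1596. Alternatives were other pseudocounts, filters, scalings, fits with more libraries, a replicate block, each library left out, and adult set 2.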

Additional observations from a re-analysis of the deposited data

Results flagged for a closer look

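The change with age differed between KO2 and wild-type brain, by the limma interaction with Benjamini-Hochberg adjustment over all tested genes, for the 10 genes named here, the 5 with the largest difference in each direction. Each value is the log2(FPKM + 1) change in KO2 minus that in wild type. More positive in KO2 were Txnip (3.41), Npcd (2.098), Sgk1 (1.81), C130071C03Rik (1.54) and Dusp4 (1.39). More negative in KO2 were Amd1 (-3.46), Mt3 (-2.70), Mt1 (-2.68), Penk (-2.54) and Mbp (-2.40). Sgk1, a kinase gene that glucocorticoids induce, was at 63.4 and 73.8 FPKM in adult and 16.2 and 20.1 FPKM in E19.5 KO2 brain, against 17.3 and 16.5 FPKM in adult and 16.8 and 15.6 FPKM in E19.5 wild-type brain. Amd1, an enzyme gene of polyamine synthesis, was at 0.0504 and 0.106 FPKM in adult and 17.9 and 4.94 FPKM in E19.5 KO2 brain, against 36.4 and 18.5 FPKM in adult and 21.8 and 24.6 FPKM in E19.5 wild-type brain, and it has near-identical copies that make its level uncertain. Penk was at 79.4 and 159 FPKM in adult and 31.4 and 40.0 FPKM in E19.5 KO2 brain, against 228 and 259 FPKM in adult and 16.3 and 9.48 FPKM in E19.5 wild-type brain. All 10 kept their direction under the alternatives run, and between 1 and 8 of the 10 stayed past the threshold when a library was left out. The part of dissection, litter or sampling in these differences was not tested.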

How the results depend on the processing

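The counts of genes that rose or fell between E19.5 and adult wild-type brain stayed within 1.5 times the main ones under every alternative run, with 2700 to 3198 rises and 4299 to 4893 falls when a library was left out. Counts with a change of at least 1 became 515 rises and 478 falls at a pseudocount of 10. Of the 278 named genes tested, 205 kept direction and side of the threshold under every setting. Rpl41 was at 0 under quantile scaling. With adult set 2, whose low values are listed at 0 and which has cerebellar markers, in place of set 1, the change turned in 18 named genes: Rps21 (-1.64), Rplp1 (-1.75), Ccnd1 (-0.43), Stx1a (-0.59), Scn2a1 (0.48), Map1lc3a (-0.75), Olig2 (-0.64), Aldh1l1 (-0.64), Atp5d (-0.28), Ndufb3 (-0.77), Cox6b1 (-0.67), Nr4a3 (0.0090), Tap1 (-0.44), Zic2 (0.065), Etv1 (1.83), Car8 (2.81), Gal (-0.70) and Meg3 (-0.75). The cause was not tested. The interaction with KO2 was called for 1 to 155 genes when a library was left out (1 without E19.5 wild-type replicate 1) and for 160 with the replicate number as a block, against 386, and the split of more positive to more negative calls was 161 to 222 under quantile and 107 to 177 under median-of-ratios scaling, against 236 to 150. The block gave 3738 rises and 5682 falls in wild type. Same-numbered adult and E19.5 wild-type libraries had deviations with a correlation of 0.18 over 2 pairs, and over the 6 pairs of groups in the interaction fit it ran between -0.060 and 0.33. The labels give the numbers no meaning and 2 pairs are too few to show pairing, so the fits without the block are the ones reported. Depth is unknown, so no counting error could be given. In simulated data with the spread of these 4 libraries, 0% of genes changed by 0.5, 52.6% of those changed by 1 and 86.7% of those changed by 2 were recovered. Few of the genes were changed there, whereas 66.3% passed in the data. The adjusted threshold is then stricter than in the data, so these rates are not the detection rates of the comparison reported.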

Other observations

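The adult wild-type libraries of set 1 differed from each other in a group of genes that interferon induces. Isg15, a ubiquitin-like modifier, was at 15.0 and 2.91 FPKM in adult brain (replicates 1 and 2) and 0.758 and 0.941 FPKM at E19.5. Ifit3, which belongs to the same antiviral response, was at 14.05 and 3.19 FPKM in adult brain and 0.395 and 0.422 FPKM at E19.5, and Ifitm3 at 90.4 and 29.4 FPKM in adult brain and 9.17 and 16.9 FPKM at E19.5. Adult replicate 1 was the high library for all 3, whereas the MHC class I gene H2-K1 was at 8.58 and 7.81 FPKM in adult brain and 2.19 and 2.34 FPKM at E19.5, with no such gap between adult libraries. Isg15, Ifit3 and Ifitm3 were chosen after their values were seen. Both adult libraries lay above both E19.5 libraries for all 4 genes, beside 85.4% of all tested genes without overlap.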
